A study of Mus musculus with 10 samples.

Results

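The matrix metalloproteinases (MMPs) and their inhibitors measured here are 10 genes, which make up 10 of the 18381 genes in the deposited count table. They are the secreted proteases Mmp2, Mmp9 and Mmp13, the membrane-bound proteases Mmp14, Mmp15 and Mmp16, the tissue inhibitors Timp1, Timp2 and Timp3, and the membrane-anchored inhibitor Reck. The members were taken by gene symbol, and all 10 were among the 14504 genes with enough counts to be tested. Each of 5 wild type C57BL/6JOlaHsd embryos (numbered 1, 2, 3, 4 and 6) at embryonic day 14 gave a first lower molar to both media. The IGF1 teeth received 750 ng per ml of mouse recombinant IGF1 (insulin-like growth factor 1), a secreted hormone that acts through a receptor tyrosine kinase. The control medium received the same volume of the carrier (PBS with BSA), which the IGF1 teeth also received, and every tooth was kept in a hanging drop for 6 h. The teeth were whole molars with epithelium and mesenchyme together, and each was sequenced on its own, giving 5 IGF1 and 5 control libraries.

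MMPs are zinc-dependent proteases that cut collagens, laminins and other matrix proteins, and most are made as inactive proenzymes. TIMPs block the active site of MMPs, and Reck is a membrane protein that restrains Mmp2, Mmp9 and Mmp14. The family is also linked by an activation step at the cell surface, where Mmp14 and Timp2 together hold and activate the Mmp2 proenzyme. In teeth these proteins take part in remodelling the basement membrane and the mesenchymal matrix while the epithelium folds.

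With IGF1, 4 of the 10 genes fell and 0 rose by edgeR. The count of members that fell was 2 (Mmp2 and Mmp13) without embryo 1, 2 or 3, and 1 (Mmp2) without the embryo block. The secreted proteases Mmp13 and Mmp2 fell by the most, and the inhibitors Reck and Timp3 fell by less. Over all genes tested, 11.5% were called in either direction (1666 of 14504) and 4.76% were called lower (691). The count over all genes was 1124, 1188, 1602, 986 and 994 without embryo 1, 2, 3, 4 or 6, and 887 without the embryo block. Of the 10 members, 5 were lower in all 5 embryos (Mmp2, Mmp13, Mmp16, Timp3 and Reck), against 11.2% of all genes tested. The median log2 fold change was -0.21 over the members and -0.0038 over all genes tested. The quasi-likelihood test of edgeR was fitted to all genes with the embryo as a block, and a gene was called where its adjusted p was under 0.05. At an unadjusted p under 0.05, 5 members differed by the same test, the called genes and Mmp16, and all 5 were lower. Over all genes tested, 26.5% had such a p in either direction and 12.2% had one with a lower level. DESeq2 and limma-voom also called 0 members higher.

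**Figure D1:**
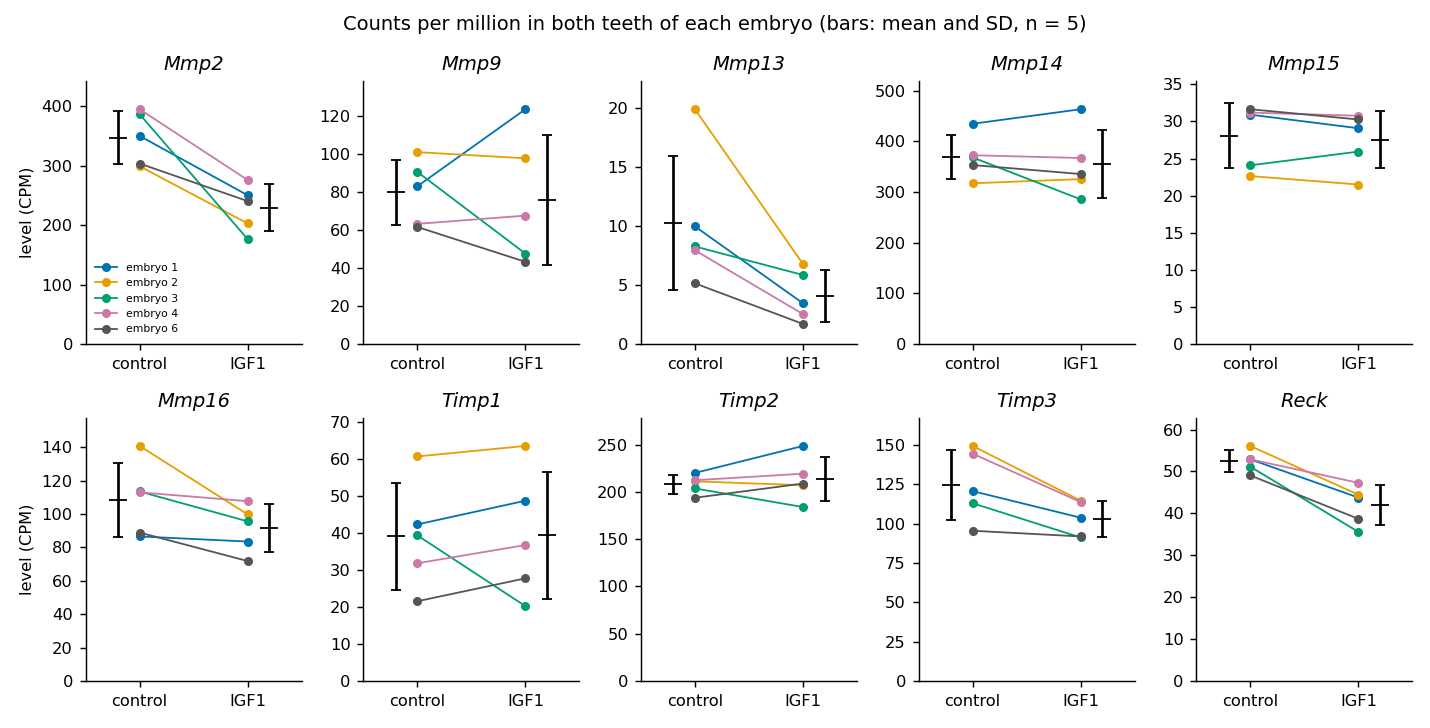
Level of each gene in CPM (counts scaled to the library's size, vertical axes starting at 0) in the control and the IGF1 tooth, with a line for each embryo and black bars for the mean and SD of 5 libraries. All 5 lines of Mmp2, Mmp13, Mmp16, Timp3 and Reck go down, while those of Mmp9, Mmp14, Mmp15, Timp1 and Timp2 go both ways.

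The libraries held 2845773 to 8763113 counts, and both teeth of embryo 1 were the shallowest. All 10 of a list of dental epithelium markers and all 12 of a list of dental mesenchyme markers were detected and tested. In whole molars, fewer cells of a type and less RNA per cell cannot be told apart.

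The 5′ flanks of Mmp13 and Reck are shown because Mmp13 had the largest fall of the members and Reck is an inhibitor also called lower. The sequences are the 250 bases before the RefSeq start of each gene (GRCm38.p6), 5′ to 3′ on the gene's own strand. Capitals mark matches to 2 motifs, the AP-1 site TGAGTCA, which reads TGACTCA on the other strand, and the Runx site AACCACA, which reads TGTGGTT there. The Mmp13 flank lies at chr9:7272264-7272513 and the Reck flank at chr4:43875280-43875529, both on the plus strand.

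Mmp13: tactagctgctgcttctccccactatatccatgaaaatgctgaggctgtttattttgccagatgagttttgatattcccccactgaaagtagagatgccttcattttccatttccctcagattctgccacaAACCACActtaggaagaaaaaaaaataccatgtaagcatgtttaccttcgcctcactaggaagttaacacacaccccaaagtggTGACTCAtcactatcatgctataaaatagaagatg

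Reck: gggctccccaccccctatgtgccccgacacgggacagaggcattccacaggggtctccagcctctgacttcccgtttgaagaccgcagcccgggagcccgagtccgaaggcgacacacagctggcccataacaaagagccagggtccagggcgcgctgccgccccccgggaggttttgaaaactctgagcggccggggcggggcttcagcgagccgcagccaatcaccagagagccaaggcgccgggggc

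Promoters were matched for 7 of the 10 members (Mmp13, Mmp14, Mmp15, Timp1, Timp2, Timp3 and Reck). Of these, Mmp13 alone held either motif. Its AP-1 match, on the minus strand, spans 35 to 29 bases before the start, and its Runx match spans 119 to 113 bases before it. The 2 matches do not overlap. Of 32851 promoter windows of this length in the table, 4.46% held the AP-1 letters, 4.4% the Runx letters and 0.24% (79 windows) held both. The Runx motif was chosen after the Mmp13 flank was seen, so its share and that of both are descriptions only. The Mmp13 flank also differs from the others in base composition. It is 40.4% G and C with 1 CpG, while the other 6 range from 54.4% for Timp1 to 68.4% for Reck and hold 6 to 21 CpGs. The median over all windows is 52.4% with 6 CpGs.

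Among the secreted proteases, Mmp13 (ENSMUSG00000050578, chromosome 9, 7272514 to 7283331) encodes collagenase 3, which cuts fibrillar collagens and is typical of bone-forming cells and hypertrophic cartilage. Levels are given as CPM, the counts of a gene scaled to the size of its library. Its control teeth had 9.96, 19.9, 8.27, 7.94 and 5.15 CPM in embryos 1, 2, 3, 4 and 6, and the IGF1 teeth of the same embryos had 3.46, 6.78, 5.85, 2.54 and 1.71. Every IGF1 tooth was below its own control tooth, but the groups overlap, since the IGF1 teeth of embryos 2 and 3 were above the control tooth of embryo 6. The means were 10.2 ± 5.65 CPM in control and 4.07 ± 2.17 CPM with IGF1 (SD, n = 5 embryos). Mmp13 fell by 1.31 on the log2 scale (SE 0.22, edgeR adjusted p = 0.00357), a level 59.6% lower. The difference was smallest in embryo 3 (log2 -0.46) and lay between -1.49 and -1.35 in the other embryos.

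Mmp13 was the least abundant member, with 12 to 136 counts in a library. Without the embryo block its log2 fold change was -1.30 and the adjusted p was 0.0758 by the same edgeR test, so its call rests on comparing teeth of the same embryo. Osteoblast markers were present in these molars, with Runx2 at 243 ± 25.9 CPM and Sp7 at 47.6 ± 15.6 CPM in control teeth (SD, n = 5). Their summed level spread widely, from 384 to 1259 CPM in control and from 295 to 1565 CPM with IGF1, and it was lower in 2 of 5 embryos. The control tooth of embryo 2 had both the highest Mmp13 and the highest osteoblast sum of the control teeth. In the IGF1 tooth of embryo 2 the sum was higher still, at 1565 CPM against 1259 CPM, while Mmp13 was lower. Of these markers, Spp1 and Ibsp had the widest ranges. Spp1 ran from 49.1 to 449 CPM in control and from 37.6 to 341 CPM with IGF1, and was lower in 3 of 5 embryos. Ibsp ran from 5.91 to 177.5 CPM in control and from 0.999 to 494.6 CPM with IGF1, and was lower in 4 of 5 embryos. The median log2 fold change of the tested osteoblast markers was -0.16, and 5 of the 7 were below 0. Of 7 osteoblast markers tested, 0 were called by edgeR, DESeq2 or limma-voom, and 1 had an unadjusted p under 0.05. The edgeR adjusted p-values ran from 0.140 for Runx2 to 0.873 for Phex. Their part in the fall of Mmp13 was not tested.

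Mmp2 (ENSMUSG00000031740, chromosome 8, 92827291 to 92853420) encodes gelatinase A, which cuts denatured collagen and basement membrane collagen IV. Its control teeth had 350.4, 299, 387, 395 and 304 CPM in embryos 1, 2, 3, 4 and 6, and the IGF1 teeth had 250.5, 203, 177, 276 and 241. All IGF1 teeth were below all control teeth. Groups without overlap in this direction were found for 3.03% of all genes tested, and among the members for Mmp2 and Reck. The means were 347 ± 44.9 CPM in control and 229 ± 39.5 CPM with IGF1 (SD, n = 5). Mmp2 fell by 0.61 on the log2 scale (SE 0.10, edgeR adjusted p = 0.00359), a level 34.3% lower with a 95% interval of the fold from 0.562 to 0.768.

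The fall of Mmp2 was largest in embryo 3 (log2 -1.13) and smallest in embryo 6 (-0.34). It was called under every alternative run here, and without embryo 3 it was -0.48. Mmp2 is a gene of mesenchymal cells in most embryonic tissues, and 3 of 12 mesenchyme markers were also called lower, namely Pdgfra (-0.53), Vim (-0.42) and Pdgfrb (-0.32). The other 9 were not called by edgeR, although DESeq2 and limma-voom also called Barx1 lower (-0.28, edgeR adjusted p = 0.0510). The median log2 fold change of the list was -0.13. Its summed level was 7331 to 9493 CPM in control and 6593 to 9210 CPM with IGF1, lower in 4 of 5 embryos. The lowest log2 fold change of the 12 was that of Pdgfra, -0.53 (SE 0.08), beside -0.61 (SE 0.10) for Mmp2. The part of mesenchymal cells in the lower Mmp2 was not tested.

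Mmp9 (ENSMUSG00000017737, chromosome 2, 164940780 to 164955850) encodes gelatinase B, which is abundant in osteoclasts and other myeloid cells. It had 83.1, 101, 90.8, 63.4 and 61.8 CPM in the control teeth of embryos 1, 2, 3, 4 and 6, and 124, 98, 47.7, 67.8 and 43.4 CPM in the IGF1 teeth. The embryos went opposite ways, with Mmp9 higher in embryo 1 (log2 0.57) and 4 (0.10) and lower in embryos 2, 3 (-0.92) and 6. The fitted log2 fold change was -0.17 with a 95% interval from -0.54 to 0.20 (edgeR adjusted p = 0.571). Osteoclast markers were detected at low levels, and their summed level in control and IGF1 teeth was 61.2 and 83.2 CPM in embryo 1 and 67.7 and 36.5 CPM in embryo 3. The IGF1 tooth thus had the higher sum in embryo 1, where Mmp9 was also higher, and the lower sum in embryo 3, where Mmp9 was also lower. In control and IGF1 teeth the sums were 64.3 and 64.1 CPM in embryo 2, nearly equal. They were 43.3 and 45.9 CPM in embryo 4, and 38.8 and 27.7 CPM in embryo 6. Of the 4 osteoclast markers tested, 0 were called by edgeR, DESeq2 or limma-voom, 0 had an unadjusted p under 0.05, and their part in the spread of Mmp9 was not tested.

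**Figure D2:**
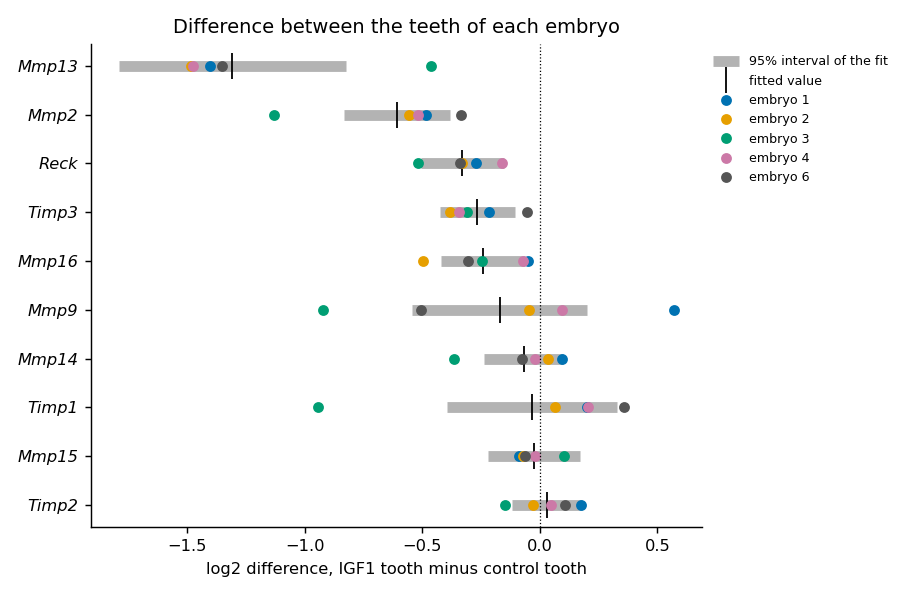
Log2 difference between the IGF1 and the control tooth of each embryo (points), with the fitted log2 fold change (black tick) and its 95% interval (grey bar) for each gene, ordered by the fitted value. The intervals of Mmp13, Mmp2, Reck, Timp3 and Mmp16 lie below 0, and embryo 3 has the lowest point of Mmp2, Mmp9, Mmp14, Timp1, Timp2 and Reck.

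Of the membrane-bound proteases, 0 of 3 were called by edgeR, DESeq2 or limma-voom. Mmp14 (ENSMUSG00000000957, chromosome 14, 54431612 to 54445364) encodes MT1-MMP, which cuts collagen at the cell surface and activates Mmp2. It had 369 ± 42.5 CPM in control teeth and 355 ± 67.0 CPM with IGF1 (SD, n = 5), ranging from 317 to 435 and from 286 to 463. The groups overlap almost fully, and Mmp14 was higher with IGF1 in embryos 1 and 2. Its log2 fold change was -0.07 (95% interval -0.24 to 0.10, edgeR adjusted p = 0.625).

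Mmp15 (ENSMUSG00000031790, chromosome 8, 95352268 to 95375080), which encodes MT2-MMP, had 28.1 ± 4.36 CPM in control and 27.5 ± 3.85 CPM with IGF1 (SD, n = 5). Its log2 fold change was -0.02 (95% interval -0.22 to 0.17, edgeR adjusted p = 0.900), which is an interval of the fold from 0.858 to 1.13.

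Mmp16 (ENSMUSG00000028226, chromosome 4, 17852893 to 18119145), which encodes MT3-MMP, stood between these and the called genes. Its control teeth had 86.6, 141, 114, 113 and 88.9 CPM in embryos 1, 2, 3, 4 and 6, and the IGF1 teeth had 83.5, 99.7, 95.6, 108 and 71.8. The IGF1 tooth was lower in 5 of 5 embryos, by little in embryos 1 (log2 -0.05) and 4 (-0.07) and by most in embryo 2 (-0.50). The log2 fold change was -0.24 (SE 0.08), with an edgeR adjusted p of 0.0816, which did not pass the threshold, and it passed under none of the alternatives.

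Among the inhibitors, Reck (ENSMUSG00000028476, chromosome 4, 43875530 to 43944806) is anchored in the cell membrane, while the TIMPs are secreted. Its control teeth had 52.9, 56.1, 51.1, 52.9 and 49.1 CPM in embryos 1, 2, 3, 4 and 6, and the IGF1 teeth had 43.8, 44.5, 35.6, 47.3 and 38.7. The groups do not overlap, and the gap between them is narrow, from 47.3 to 49.1 CPM. Reck fell by 0.33 on the log2 scale (SE 0.08, edgeR adjusted p = 0.0240), a level 20.4% lower. Its call is close to the threshold. The edgeR adjusted p was 0.0575, 0.0571, 0.0559 and 0.0737 without embryo 1, 2, 3 or 6 and 0.0662 without the embryo block. By DESeq2's Wald test the adjusted p was 0.0578. Over all alternatives the log2 fold change of Reck stayed between -0.37 and -0.28.

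Timp3 (ENSMUSG00000020044, chromosome 10, 86300372 to 86349506) encodes the TIMP that binds the extracellular matrix and also inhibits ADAM and ADAMTS proteases. Its control teeth had 121, 149, 113, 144 and 95.4 CPM in embryos 1, 2, 3, 4 and 6, and the IGF1 teeth had 104, 114, 91.1, 114 and 91.8. The IGF1 tooth was lower in 5 of 5 embryos, although the groups overlap and the difference in embryo 6 was small (log2 -0.06). Timp3 fell by 0.27 on the log2 scale (SE 0.07, edgeR adjusted p = 0.0371), a level 16.8% lower. It too is close to the threshold, with an edgeR adjusted p of 0.0841, 0.114, 0.0689 and 0.131 without embryo 1, 2, 3 or 4, and of 0.240 without the embryo block. Over all alternatives its log2 fold change stayed between -0.32 and -0.24. Timp3 lies within Syn3, a gene of the opposite strand with 52 to 129 counts in a library, and reads of both could be mixed where strand was not used.

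Timp1 (ENSMUSG00000001131, chromosome X, 20870166 to 20874735), a secreted inhibitor induced by many growth factors and cytokines, had 42.3, 60.6, 39.3, 31.8 and 21.5 CPM in the control teeth of embryos 1, 2, 3, 4 and 6. The IGF1 teeth had 48.7, 63.5, 20.2, 36.7 and 27.7 CPM. Timp1 was higher with IGF1 in 4 embryos, by log2 0.07 to 0.36, and lower in embryo 3 (-0.94). The fitted log2 fold change was -0.03 (95% interval -0.39 to 0.33, edgeR adjusted p = 0.931), and without embryo 3 it was 0.20 (edgeR adjusted p = 0.200). Timp1 lies within Syn1 on the opposite strand, which had 12 to 67 counts.

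Timp2 (ENSMUSG00000017466, chromosome 11, 118301069 to 118355740), which inhibits MMPs and also bridges Mmp14 and the Mmp2 proenzyme, had close means in both groups. Its level was 208 ± 9.97 CPM in control (194 to 220.2) and 214 ± 23.5 CPM with IGF1 (184 to 249; SD, n = 5). The log2 fold change was 0.03 (95% interval -0.12 to 0.18, edgeR adjusted p = 0.833), so a fall as large as that of Mmp2 lies outside its interval. Cep295nl, with 22 to 88 counts in a library, lies within Timp2 on the same strand, and reads of both could be mixed.

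Levels of different genes were compared as CPM per kb of annotated exon. In control teeth Mmp2 was the highest at 103 ± 13.3 CPM per kb (SD, n = 5), and all 5 of its values were above all those of Mmp14 (62 ± 7.13). Then came Timp2 (53.5 ± 2.56), Timp1 (44 ± 16.3) and Mmp9 (22.6 ± 4.87), and then Timp3 (15.3 ± 2.75), Mmp16 (12.5 ± 2.55) and Reck (11 ± 0.542). Mmp15 (5.21 ± 0.808) and Mmp13 (3.83 ± 2.12) were the lowest. Each neighbouring pair from Mmp14 to Reck had overlapping ranges over the control teeth, as did Mmp15 and Mmp13, while Reck was above Mmp15 in all 5 without overlap. With the longest transcript as the length, Mmp14 was at 114 CPM per kb and overlapped Mmp2 at 113, so the first place of Mmp2 depends on how length is taken. Timp3 was then at 26.4 and ranked above Mmp9 at 25.2.

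**Figure D3:**
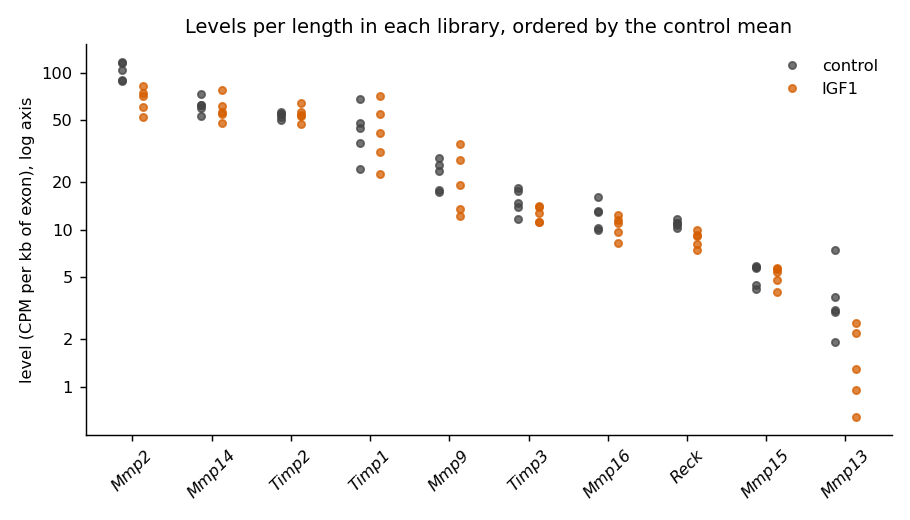
Level of each gene in CPM per kb of annotated exon (log axis) in the 5 control and the 5 IGF1 libraries, ordered by the control mean. Mmp2 lies at 88.8 to 117 CPM per kb in the control teeth and Mmp13 at 1.93 to 7.43.

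Mmp2 was also set against its partners in the activation step. The ratio of Mmp2 to Timp2 per kb was 1.84, 1.64, 2.20, 2.15 and 1.81 in the control teeth of embryos 1, 2, 3, 4 and 6, and 1.16, 1.13, 1.11, 1.46 and 1.33 in the IGF1 teeth. The ratio was lower in every embryo and the groups do not overlap. The ratio of Mmp14 to Timp2 was 1.16 ± 0.112 in control and 1.08 ± 0.0823 with IGF1 (SD, n = 5), and these overlap. Summed over the 6 MMPs, the level was 209 ± 16.6 CPM per kb in control and 166 ± 27.3 CPM per kb with IGF1. The groups overlap (185 to 223 in control and 132 to 203 with IGF1), and Mmp2 alone went from a mean of 103 to 68.1. The sum of the 3 TIMPs was 113 ± 19.9 and 112 ± 23.9 CPM per kb, although Timp3 itself was called lower. These ratios and sums contain the values described above and were not tested again.

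Other genes of the family and its surroundings were read from lists. Of 18 further MMP and TIMP genes, 9 were in the table and 7 were tested. Of these, 0 were called by edgeR, DESeq2 or limma-voom, and 1 had an unadjusted p under 0.05. Mmp12 was at 28.7 ± 3.63 CPM in control teeth and Mmp11 at 27.1 ± 5.84, and the other 5 were at 2.15 to 8.49 CPM (control means, n = 5). The largest log2 fold change among the 7 was that of Mmp28, -0.74 (SE 0.28, edgeR adjusted p = 0.116), lower in 5 of 5 embryos. Timp4, with at most 4 counts in a library, was too low to test.

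Of a list of genes that activate or anchor MMPs, or bind them for uptake, 16 were tested, 1 rose and 4 fell, and their median log2 fold change was -0.03. Thbs1, a matrix protein that binds Mmp2 and Mmp9, went from 192 ± 20.4 to 88.6 ± 20.2 CPM and fell by 1.14 on the log2 scale (SE 0.11, edgeR adjusted p = 0.000153). Cldn1, a claudin that can promote Mmp2 activation, fell by 0.79 (SE 0.13, edgeR adjusted p = 0.00286). Plat, a plasminogen activator, fell by 0.54 (SE 0.12, edgeR adjusted p = 0.0169). The other called genes, named after their values were seen, were Bsg, which encodes the MMP inducer basigin (log2 fold change 0.46), and the integrin Itgb3 (-0.39). DESeq2 did not call Itgb3, and it called the proprotein convertase Pcsk5 lower (-0.51, edgeR adjusted p = 0.0780).

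Lrp1 and Furin were not called by edgeR. Lrp1, the receptor that takes up Mmp2 bound to thrombospondins, had a log2 fold change of -0.25 (edgeR adjusted p = 0.0785) and was called by DESeq2, and Furin, which opens the membrane-bound MMP proenzymes, had 0.19 (edgeR adjusted p = 0.193). Plau had 0.38 (edgeR adjusted p = 0.144) and was higher in 4 of 5 embryos.

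Of the related proteases, 0 of 10 ADAM genes were called by edgeR, DESeq2 or limma-voom, and 3 had an unadjusted p under 0.05. The log2 fold changes of all 10 ran from -0.31 to 0.41. Of 17 ADAMTS genes tested, Adamts5, an aggrecanase, fell by 0.57 (SE 0.11, edgeR adjusted p = 0.00736) and Adamts4, another aggrecanase, rose by 0.30 (SE 0.09, edgeR adjusted p = 0.0479). DESeq2 did not call Adamts4, and DESeq2 and limma-voom called Adamts18 higher (0.40, edgeR adjusted p = 0.0511). Limma-voom also called Adamts17 lower (-0.31, edgeR adjusted p = 0.0516). The ADAMTS median was -0.13, and 12 of the 17 had values below 0.

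AP-1 and Ets factors are known regulators of several MMP promoters. Of the 11 tested, 0 were called by edgeR, DESeq2 or limma-voom, and 4 had an unadjusted p under 0.05. Fosb (-1.03, edgeR adjusted p = 0.0730) and Ets1 (0.24, edgeR adjusted p = 0.0643) came closest. Fosb was low, with 4 to 34 counts in a library, and was lower in 4 of 5 embryos. Fos itself had 20.9 ± 2.89 CPM in control and 16.8 ± 4.45 CPM with IGF1 (SD, n = 5), lower in 5 of 5 embryos, with a log2 fold change of -0.34 (edgeR adjusted p = 0.0984).

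**Figure D4:**
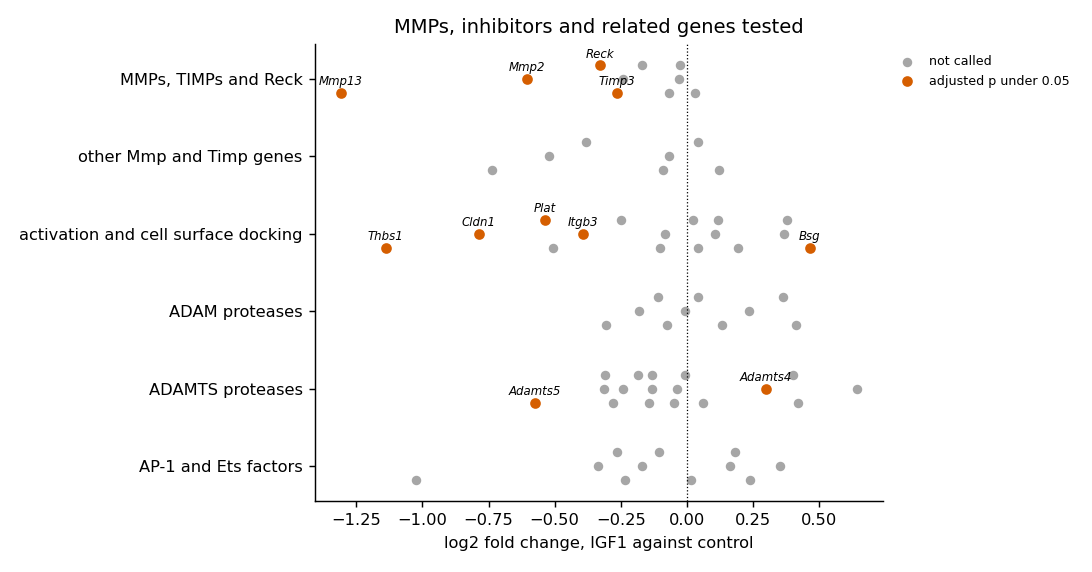
Fitted log2 fold change of IGF1 against control for the 10 members and the tested genes of 5 related lists, with genes at an adjusted p under 0.05 in orange and named. Bsg (0.46) and Mmp13 (-1.31) are the farthest called genes to either side.

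Markers of further cell types were read beside these results. Of 8 endothelial markers, all had log2 fold changes below 0 and 2 were called by edgeR, Esam (-0.42) and Cdh5 (-0.38), of which DESeq2 called Cdh5 alone. Their summed level was 395 to 451 CPM in control and 309 to 416 CPM with IGF1, lower in 5 of 5 embryos. Of 8 macrophage markers tested, Csf1r was called lower by edgeR (-0.44) but not by DESeq2, and the sum was 73.5 to 102 CPM in control and 62.4 to 90.4 CPM with IGF1, lower in 5 of 5 embryos. Blood cell markers were lower too, with 4 of 5 erythroid genes called, all of them haemoglobin genes (-0.56 for Hba-a1, -0.52 for Hbb-bt and -0.46 for Hbb-bs), whose close copies can share reads. Their summed level was 717 to 1311 CPM in control and 513 to 1053 CPM with IGF1, lower in 5 of 5 embryos. Reck and Timp3 are also expressed by vascular cells, and the part of vascular and blood cells in their fall was not tested. Of 8 chondrocyte markers, 5 were in the table and 4 were tested. Sox9, a transcription factor of cartilage that many epithelia also express, rose (log2 fold change 0.43, edgeR adjusted p = 0.0164) and was called by DESeq2 and limma-voom too. The chondrocyte sum was 46.7 to 88.8 CPM in control and 70.5 to 107 CPM with IGF1, higher in 5 of 5 embryos, and the median of the list was 0.44. Col10a1, the marker of hypertrophic cartilage, was not among the 5, and the part of cartilage cells in the level of Mmp13 was not tested. Of the tested muscle and glia markers, 2 in each list, 0 were called by edgeR, DESeq2 or limma-voom, and 0 had an unadjusted p under 0.05. Of 10 dental epithelium markers, Krt5 was called higher by edgeR (0.43), limma-voom also called Krt15 higher (0.46, edgeR adjusted p = 0.0540), and the median of the list was -0.0086.

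The genes whose levels followed the called members most closely over the 10 libraries were found by Pearson's r of log2 CPM, a description over libraries that share the group difference. Fibp (r = 0.970), Fbln1 (0.964) and Cdk5rap2 (0.963) were nearest to Mmp2. Ino80d (0.968), Aaed1 (0.965) and Zeb2 (0.964) were nearest to Mmp13. For Timp3 these were Ank (0.946), Bcl3 (0.922) and Lmo4 (0.910), and for Reck they were Hdc (0.952), Plek (0.943) and Ehbp1 (0.936). Of these 12 genes, Fibp, Fbln1, Aaed1, Zeb2, Ank, Hdc and Ehbp1 were called lower themselves. For the called members the nearest other member was also read, which was Reck for Mmp2 and Mmp2 for Reck (r = 0.840). Mmp9 and Timp1, which were not called, had an r of 0.844. Timp3 was nearest to Reck (0.814) and Mmp13 to Mmp16 (0.720). Over the 5 embryos' own differences, r was 0.746 for Mmp2 and Reck, -0.0636 for Timp3 and Reck and -0.0175 for Mmp13 and Mmp16. For Mmp13 and Reck it was -0.857, and -0.43 without embryo 3. Without embryo 3, which had the lowest difference of both Mmp2 and Reck, their r was -0.371 over the other 4 embryos.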

How the data were processed

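RNA from 10 cultured first lower molars was sequenced, and the authors deposited 1 table of estimated counts per gene. Per the labels, reads were processed with FastQC 0.11.8, Trimmomatic 0.39 and Salmon 0.99.0 on GRCm38, with DESeq2 also named. The transcript set, strand use and row filter are not given in the sources used here. Every gene has at least 10 counts in all. The values are whole, so rounding changed 0 of them. Symbols, positions and exon lengths came from GENCODE M21 (GRCm38), which matched 18287 of 18381 identifiers, and promoters from RefSeq (GRCm38.p6).

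Counts of all genes were tested with edgeR 4.0.16 (TMM, its expression filter, quasi-likelihood, the embryo number as replicate block), with p-values adjusted by Benjamini-Hochberg. The block follows the labels, by which each embryo gave 1 tooth to each medium. Within a pair, the libraries' deviations from their groups had correlations of 0.359, 0.252, -0.0311, 0.210 and 0.348 (embryos 1, 2, 3, 4 and 6). The control teeth of embryos 2 and 3 correlated best with the IGF1 tooth of another embryo (3 and 4). CPM are TMM-scaled, and log2 differences per embryo add 0.5 CPM. Within groups, libraries differed by more than sampling noise (chi-square per degree of freedom 4.53 to 19.6). Counts of genes with close copies or overlaps are uncertain. Alternatives were DESeq2's size factors and Wald test (DESeq2 1.42.0), limma-voom (limma 3.58.1), other filters, no block and leaving out each embryo. The test was checked on simulated data. R 4.3.3 and Python 3.11.15 were used.

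The members and lists were chosen with earlier results of these data known, so counts over them are descriptions. The Runx motif was added after the Mmp13 flank was seen. Named are all members, up to 3 called genes of each list with the largest change, and the 3 genes nearest to each called member. Other list genes with values, called or not, were chosen after their values were seen. An item of the lists is not reported here and was left out of its list's counts.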

Additional observations from a re-analysis of the deposited data

Results flagged for a closer look

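In each of the 20 groups of 5 libraries (10 genes in control and in IGF1 teeth), the gap of the highest or lowest library to its neighbour was set against the range of the group. In 0 of the 20 was it above Dixon's 95% critical value of 0.71, where chance gives about 1.

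The log2 differences between the teeth of each embryo were checked in the same way, an addition made after the values were seen. In 3 of the 10 genes the gap exceeded the critical value, where chance gives about 0.5 if genes were independent, and embryo 3 stood apart in each. Its difference in Mmp13 was -0.46, while the next was -1.35 (gap 0.869 of the range). In Timp1 it was -0.94, while the next was 0.066 (0.776), and in Mmp2 it was -1.13, while the next was -0.56 (0.72). Embryo 3 thus had the smallest fall of Mmp13 and the largest of Mmp2. Without embryo 3, edgeR still called Mmp13 (-1.58, adjusted p = 0.00160) and Mmp2 (-0.48, adjusted p = 0.00199).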

How the results depend on the processing

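Without the replicate block 887 genes were called in place of 1666 (885 of them the same genes), and 1 member (Mmp2) in place of 4. Leaving out each embryo gave 986 (without embryo 4) to 1602 genes, and 994 without embryo 6. It gave 2 to 3 members, with 2 without embryo 1, 2 or 3, where Mmp2 and Mmp13 were called. Of 110 values of single members over 11 alternatives, 93 kept their direction and side of the threshold, 12 lost a call and 5 changed sign. Those that changed sign had no call. They were Timp1 without the block (0.0043) and without embryo 3 (0.20), Mmp9 (0.019) and Mmp14 (0.0030) without embryo 3, and Timp2 without embryo 1 (-0.0054). Leaving out each embryo, Mmp9 ran from -0.34 to 0.019, Mmp14 from -0.11 to 0.0030, Mmp15 from -0.064 to -0.012, Timp1 from -0.13 to 0.20 and Timp2 from -0.0054 to 0.069. Over the alternatives Mmp2 ran from -0.68 to -0.48 (adjusted p 2.83e-07 to 0.0159) and Mmp13 from -1.58 to -1.23 (0.000370 to 0.0758). With the longest transcript as length, control levels were 114 CPM per kb for Mmp14, 21.7 for Mmp16, 56.2 for Timp2, 26.4 for Timp3 and 11.5 for Reck. Apart from fewer samples when an embryo is left out, the cause was not tested. Mmp13 had the lowest counts of the members, down to 12 in a library.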
